A study of Mus musculus with 30 samples.

Results

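The genes described here encode subunits of the 5 enzyme complexes of mitochondrial oxidative phosphorylation, as measured in the hypothalamus of newborn female mice. They were found by symbol in the array's gene annotation: all names starting with Ndufa, Ndufb, Ndufc, Ndufs, Ndufv, Uqcr, Cox4, Cox5, Cox6, Cox7, Cox8 or Atp5 except the Ndufaf assembly factors, together with Sdha, Sdhb, Sdhc, Sdhd and Cyc1. The annotation held 83 such genes among 18194 genes with a symbol of their own, and each was read by its brightest probe set. Of the 83 genes, 78 passed the filter on dim signals, which left out the lowest 40% of all probe sets and kept 27022.

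Each mouse was of the C57BL/6J strain and received 1 subcutaneous injection on the day of birth, either of estradiol benzoate (EB, 7.5 μg in 20 μl of peanut oil), an esterified estrogen, or of the oil alone. The whole hypothalamus was removed at 1, 3, 6, 12 or 24 h, and, per the study's methods, the RNA of each animal was put on its own GeneChip Mouse Genome 430 2.0 array. There were 3 animals for each of 10 groups, namely EB-treated and oil-treated mice at each time, and 30 arrays in all. All were female, so what follows compares EB-treated with oil-treated females and includes no male, and the sources used here do not say which pups shared a litter.

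Oxidative phosphorylation is the last step of energy release from food. Complex I takes electrons from NADH and complex II from succinate. Complex III hands them through cytochrome c to complex IV, which reduces oxygen, and complex V uses the proton gradient built by complexes I, III and IV to make ATP. Neurons depend heavily on this route, and the subunits encoded in the nucleus have to match those encoded in mitochondrial DNA, which carry other symbols and were not analysed here.

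The deposited values are signal intensities, and the median signal of an array lay between 28.03 and 66.91, with the 12 h arrays brightest. All values below are signals after each array was scaled to the same median, 41.3. All 14 measured markers of hypothalamic neurons passed the filter, and their summed scaled signal lay between 4867 and 7824 on every array. Of the listed skeletal muscle markers only a single one passed the filter, with a scaled signal between 142.6 and 204.6. Likewise, a single listed anterior pituitary marker passed, with a scaled signal between 70.7 and 197.9. At 24 h the EB and oil arrays differed in more than the genes described here. The 18S ribosomal RNA control read 1080, 1330 and 1266 on the EB 24 h arrays, against 482.8, 516.4 and 329.2 on the oil 24 h arrays. It also varied with time, from 656.8 to 1013 on the 6 h arrays of both treatments and from 295.0 to 462.2 at 1 h and 3 h. Genes that mark fibroblasts of the leptomeninges, the thin membranes covering the brain (14 genes), summed to 610.6, 707.6 and 2026 on the EB 24 h arrays, against 3749, 3476 and 2940 on the oil 24 h arrays, and 13 of the 14 passed as lower. The 12 general neuronal markers summed to between 28474 and 30175 with EB and between 32233 and 34445 with oil at 24 h. Marker sums of astrocytes and radial glia (12921 to 14636 with EB, 15584 to 16366 with oil), of microglia and macrophages (904.4 to 998.6 with EB, 1062 to 1186 with oil) and of endothelial cells (716.9 to 817.6 with EB, 824.4 to 898.2 with oil) were also lower with EB without overlap at 24 h. That of the choroid plexus and ependyma (186.4 to 215.9 with EB, 168.3 to 180.1 with oil) was higher without overlap. So was the single anterior pituitary marker past the filter (113.5 to 197.9 with EB, 98.7 to 105.5 with oil). The pituitary list shares Pomc with that of hypothalamic neurons. The 3′ to 5′ signal ratio of Gapdh, a measure of RNA integrity, was 0.666 to 0.722 with EB and 0.713 to 0.763 with oil at 24 h. The part that these differences have in the 24 h results was not tested, and in whole tissue fewer cells of a type and less RNA per cell cannot be told apart.

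Complex I gave 33 of the 78 genes, complex II 4, complex III 9, complex IV 15 and complex V 17. Over the 78, the median gene was brighter than 97.7% of all probe sets. Probe sets bind their targets with different strength, however, so signals are compared below only for the same probe set between groups. The filter removed 5 genes, of which 4 encode tissue-specific forms of complex IV subunits: Cox4i2, known from lung, the muscle forms Cox7a1 and Cox8b, and the testis form Cox7b2. The single-symbol probe set of Ndufb4 was the other.

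The first question was whether EB changed these genes at any time. Up to 12 h none of the 78 passed the test. At 1 h, 0 passed (limma, adjusted p under 0.05, where 0.0037% of all probe sets passed), 8 had an unadjusted p under 0.05 (8.63% of all), and the median EB minus oil difference was 0.08 on the log2 scale, against 0.02 over all probe sets. At 3 h, 0 passed (0.474% of all), 18 had an unadjusted p under 0.05 (12.8% of all), and the median was 0.12 against 0.05. At 6 h and 12 h, 0 passed in either comparison (0% and 0% of all), 0 and 4 had an unadjusted p under 0.05 (6.02% and 6.57% of all), and the medians were 0.00 and 0.03. The two-way model of the study's methods was run on the deposited signals with no scaling and no log2. It also called 0 at each of these times (0.0111%, 0.104%, 0% and 1.92% of all at 1, 3, 6 and 12 h). Averaged over the 5 times, 0 passed in limma (0.074% of all) and 0 in the two-way model (0% of all). In limma 8 had an unadjusted p under 0.05 (8.69% of all), and the median was 0.02.

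At 1 h and 3 h most differences were positive after scaling, while with no scaling the 1 h median was -0.013 against -0.07 over all probe sets. At 1 h, 69 of the 78 genes had a positive difference and 15 had all 3 EB arrays above all 3 oil arrays (10.4% of all probe sets did), with 0 the other way round (7.12% of all). Among the 15, Uqcr11, a small subunit of complex III, had 1389, 1269 and 1248 with EB at 1 h and 1144, 1125 and 1078 with oil, a log2 difference of 0.22 (adjusted p = 0.351 from limma, standard error 0.07). Ndufa13, which sits in complex I and is also known as a cell death regulator, differed by 0.23 and Cox6b2 by 0.54. At 3 h, 73 of 78 differences were positive and 15 genes had EB wholly above oil (8.7% of all), against 2 with EB wholly below (5.3% of all). Ndufa2, a complex I accessory subunit, had 1633, 1549 and 1792 with EB at 3 h and 1390, 1171 and 1489 with oil. That difference was 0.30 (standard error 0.10, adjusted p = 0.163 from limma), and Ndufv3, beside the NADH-binding site, differed by 0.24 and Uqcr11 by 0.21.

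The 2 genes with EB wholly below oil at 3 h encode core subunits. Ndufs1, the largest iron-sulfur subunit of complex I, had 663.3, 595.2 and 601.6 with EB and 698.7, 740.8 and 697.4 with oil, a difference of -0.20 (adjusted p = 0.227 from limma). Atp5a1, the alpha subunit of the ATP synthase head, differed by -0.15 (adjusted p = 0.28). Deposited signals with no scaling moved the median of all probe sets at 3 h to -0.20 and that of the 78 genes to -0.13, and on that scale Ndufv3 stood at -0.0093 and Uqcr11 at -0.037. Without oil 3 h replicate 3, 2 genes passed at 3 h, Ndufb6 and Uqcrc2, both higher.

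At 6 h the 2 treatments lay together: 39 differences were above 0 and 39 below, and 2 genes had EB wholly above oil (5.66% of all) and 2 wholly below (4.32% of all). The 2 above were Cox5b, a structural subunit of complex IV, at 0.10, and Atp5pb, which encodes the peripheral stalk, at 0.07. Below were Ndufs8, an iron-sulfur subunit of complex I, at -0.25, and Atp5l, subunit g of complex V, at -0.08. At 12 h, 11 genes had EB wholly above oil (5.27% of all) and 1, Ndufs8 at -0.22, wholly below (6.07% of all). Cyc1, the cytochrome of complex III that passes electrons on, had 1806, 1699 and 1601 with EB at 12 h and 1406, 1570 and 1327 with oil. Its difference was 0.25 (standard error 0.09, adjusted p = 0.673 from limma), and that of Ndufs7, another iron-sulfur subunit, was 0.22 (adjusted p = 0.644). Cox7c differed by 0.52, with 76.5, 71.2 and 65.6 with EB and 42.9, 55.9 and 50.6 with oil, on a dim probe set.

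**Figure D1:**
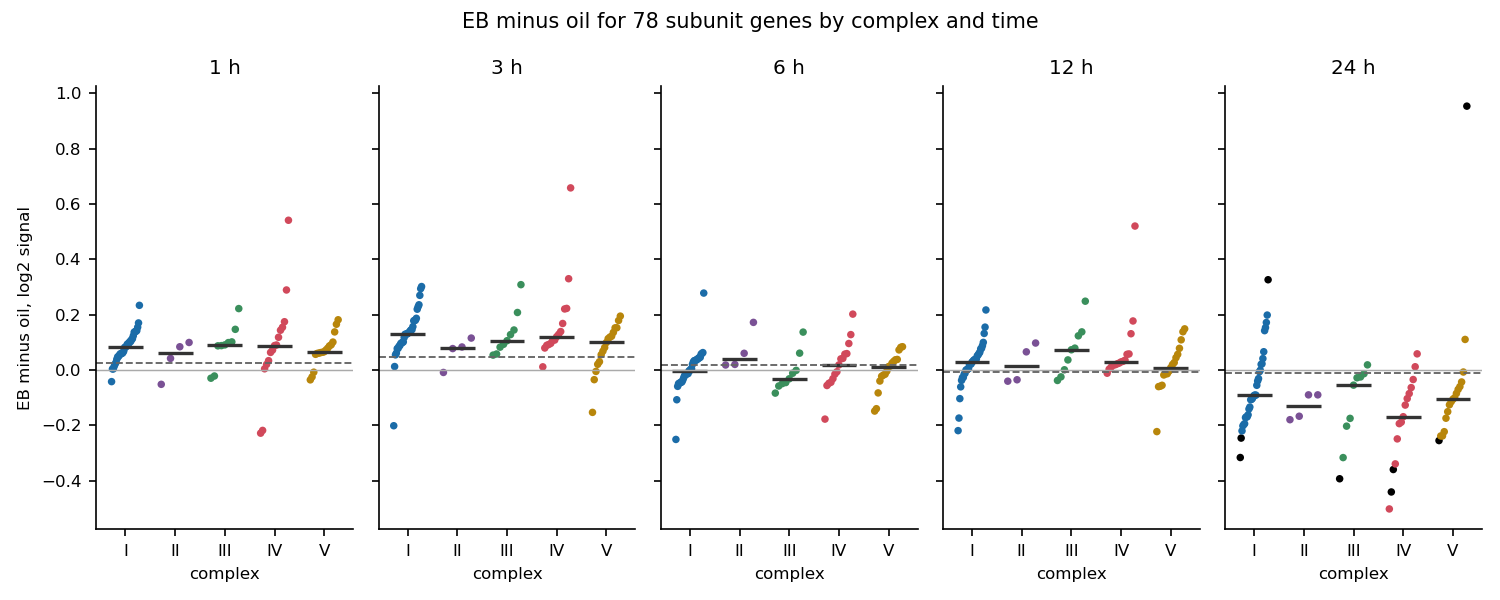
EB minus oil difference in log2 scaled signal (y axis) for each of the 78 genes, by complex (x axis) and time (panels). Points are genes, black where limma's adjusted p was under 0.05, thick lines the median of a complex and dashed lines the median of all 27022 probe sets; at 24 h the complex medians lie between -0.17 and -0.05, and with no scaling the median of the 78 genes there is 0.12 against 0.22 for all probe sets.

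At 24 h, 8 of the 78 genes passed, 6 of them lower and 2 higher in EB-treated mice (limma, where 2.77% of all probe sets passed, 2.19% as lower and 0.581% as higher). The lower ones were Cox6a1 and Cox5b of complex IV, Uqcrb of complex III, Ndufb9 and Ndufc2 of complex I and Atp5a1 of complex V. The higher ones were Ndufa5 of complex I and Atp5md of complex V. The median difference over the 78 was -0.10, against -0.01 over all probe sets, and 27 had an unadjusted p under 0.05 (15.7% of all). Without scaling, which moved the median of all probe sets to 0.22, the 78 genes had a median of 0.12, and with quantile normalization -0.019 against 0.003. The 39 brighter genes had a median of -0.15 and the 39 dimmer ones -0.09, or -0.015 and -0.044 with quantile normalization. With the lowest 60% of probe sets left out 9 were called (4.21% of all). No probe sets of like brightness were set beside these genes. The two-way model of the methods, on unscaled signals, called 0 of the 78 (0.0037% of all probe sets). With no scaling 1 was called, higher (0.718% of all), and with quantile normalization 5 were called higher and 1 lower (2.3% of all). With array weights 19 were called, 16 of them lower (6.72% of all probe sets were called). Without EB 24 h replicate 1, 3 were called, Cox5b, Ndufa5 and Atp5md.

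Cox6a1 (chr5:115345652-115348958 in GRCm38.p6) encodes a small subunit of complex IV. It had 6039, 6412 and 7240 in EB-treated mice at 24 h and 9042, 9232 and 8396 in oil-treated mice, and the 2 groups did not overlap. The means were 6564 ± 615 with EB and 8890 ± 438 with oil (SD, n = 3 each), and the log2 difference was -0.44 (standard error 0.10, adjusted p = 0.0125 from limma).

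Uqcrb (chr13:66900576-66905350) encodes the ubiquinone-binding protein of complex III. Its signal was 5321, 5652 and 5929 with EB and 7567, 7497 and 7115 with oil at 24 h. The EB 24 h mean was the lowest and the oil 24 h mean the highest of the 10 groups, and the 24 h difference was -0.39 (standard error 0.08, adjusted p = 0.00475 from limma).

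Cox5b (chr1:36691487-36693388) encodes a subunit that binds zinc on the matrix side of complex IV. It had 3590, 3676 and 4027 with EB and 5110, 4799 and 4576 with oil at 24 h, a difference of -0.36 (standard error 0.07, adjusted p = 0.00304 from limma). Every EB array again lay below every oil array.

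Ndufb9, Ndufc2 and Atp5a1 moved less. Ndufb9 (chr15:58933801-58939516), in the membrane arm of complex I, had 1993, 2203 and 2264 with EB and 2830, 2557 and 2651 with oil (log2 difference -0.32, adjusted p = 0.00925 from limma). Ndufc2 (chr7:97400003-97407800), at the base of the same arm, had 3600, 3440 and 3623 with EB and 4257, 4127 and 4259 with oil, a difference of -0.25 with an adjusted p of 0.0323 from limma. For Atp5a1 the EB arrays gave 2407, 2553 and 2553 and the oil arrays 3044, 2933 and 2985, which is -0.25 with an adjusted p of 0.0207 from limma. In none of the 3 did the groups overlap.

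Both higher genes encode small subunits. Atp5md (chr19:47083471-47090647), which helps ATP synthase form dimers, had 2973, 2553 and 2201 in EB-treated mice and 1520, 1095 and 1383 in oil-treated mice at 24 h. Its log2 difference of 0.95 (standard error 0.18, adjusted p = 0.00321 from limma) was a 1.94-fold higher mean and was the largest in size among the 78 genes at that time. Ndufa5 (chr6:24518662-24527690), in the arm of complex I that reaches into the matrix, had 1556, 1563 and 1574 with EB and 1245, 1191 and 1310 with oil, a difference of 0.33 (adjusted p = 0.00477 from limma, standard error 0.07). The largest difference short of the test on the higher side was that of Ndufb2, of the complex I membrane arm, at 0.20 (adjusted p = 0.131).

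The promoters of these genes were read for motifs of factors known to act on them. RefSeq windows of the GRCm38.p6 assembly, from 250 bases before to 50 bases after the start, matched 67 of the 83 genes. The letters of nuclear respiratory factor 1 (NRF1), gcgca and gcgc with 1 base of any kind between them, on either strand, were in 22.4% of the 67 genes and in 5.19% of all genes. The ETS letters ccggaag, the core bound by GABP (also called NRF2), were in 25.4% against 9.93%, and the YY1 letters aanatggcg (n being any base) in 13.4% against 2.76%. The letters tcaaggtca of the estrogen-related receptors, orphan receptors that do not bind estradiol, were in 2.99%, Atp5g3 and Sdhd, against 0.466%. The palindrome of the estrogen receptor, ggtca and tgacc with 3 bases of any kind between them, was in 0 of the 67 genes and in 0.074% of all.

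For the genes that differed at 24 h, 3 stretches of 250 bases before the start are shown to place these letters: 2 of lower genes, Cox5b (chr1:36691237-36691486, plus strand) and Cox6a1 (chr5:115348959-115349208, minus strand), and 1 of a higher gene, Ndufa5 (chr6:24527691-24527940, minus strand). Capitals mark NRF1 and ETS matches, and each is read 5′ to 3′ on the gene's strand.
Cox5b: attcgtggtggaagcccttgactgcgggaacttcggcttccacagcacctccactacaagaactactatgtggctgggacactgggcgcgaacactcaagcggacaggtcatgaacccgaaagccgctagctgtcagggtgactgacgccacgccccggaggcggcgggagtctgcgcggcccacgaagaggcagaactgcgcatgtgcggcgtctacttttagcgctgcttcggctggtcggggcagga
Cox6a1: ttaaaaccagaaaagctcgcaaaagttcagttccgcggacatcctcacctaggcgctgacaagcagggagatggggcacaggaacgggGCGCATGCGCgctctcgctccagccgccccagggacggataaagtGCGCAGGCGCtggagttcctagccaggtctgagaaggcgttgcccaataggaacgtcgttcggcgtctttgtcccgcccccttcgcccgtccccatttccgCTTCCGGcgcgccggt
Ndufa5: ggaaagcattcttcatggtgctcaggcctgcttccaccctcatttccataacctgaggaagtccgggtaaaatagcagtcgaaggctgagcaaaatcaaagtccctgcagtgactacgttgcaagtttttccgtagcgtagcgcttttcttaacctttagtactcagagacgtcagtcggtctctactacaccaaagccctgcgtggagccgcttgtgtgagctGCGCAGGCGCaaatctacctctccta
In Cox6a1 the NRF1 letters begin at positions -162 and -117 from the start and the ETS letters, on the other strand, at -16. In Ndufa5 the NRF1 letters begin at -26 from the start shown, and in Cox5b none of the 5 motifs was found in the window. Atp5md holds the ETS letters just after its start. These are matches of letters only. Among the lower genes they occurred in Cox6a1 alone, and among the higher ones in both Ndufa5 and Atp5md. No match was found for Uqcrb, Ndufb9, Ndufc2 and Atp5a1, some of which may lack a matched window. A link between the letters and the direction was not tested.

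**Figure D2:**
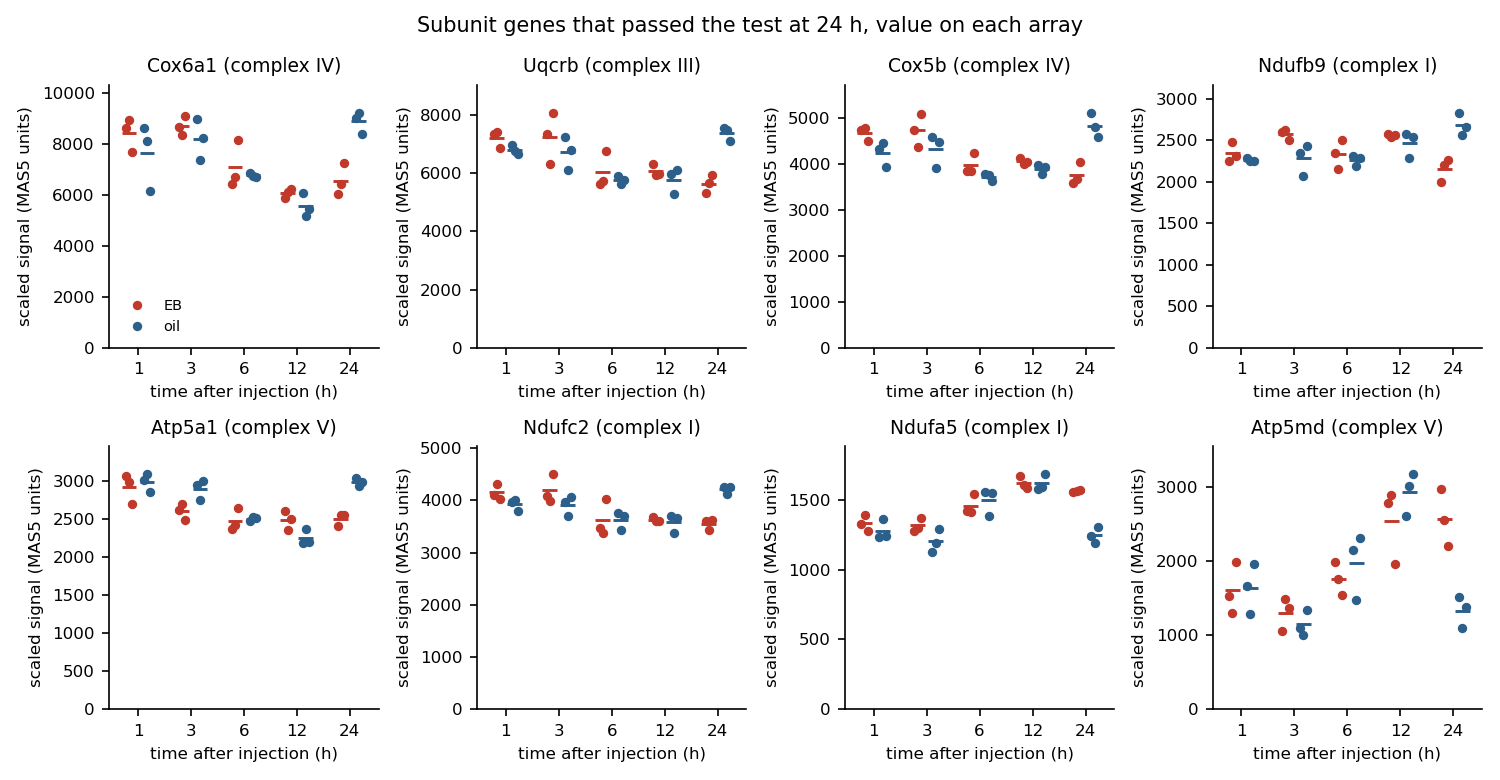
Scaled signal (y axis, MAS5 units) of the 8 genes that passed at 24 h, on each of the 30 arrays, by time after injection (x axis), with EB in red to the left of oil in blue and a line at each mean of 3. In the 6 lower genes the oil 24 h mean lies above the other 9 group means, and in Atp5md and Ndufa5 the EB 24 h values lie near the 12 h values of both treatments.

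Both 24 h groups stood at an end of the range of group means in some of these genes. In 6 of the 6 lower genes the oil 24 h mean was the highest of the 10 groups, and in 3 of them, Uqcrb, Ndufb9 and Ndufc2, the EB 24 h mean was the lowest. The genes were picked for a difference between these same 2 groups, which favours such ranks, and genes not so picked were not ranked. In Atp5md the EB 24 h values fell among those of 12 h, which were 2784, 2889 and 1957 with EB and 2616, 3010 and 3175 with oil, while the oil 24 h values fell among those of 1 h and 3 h. The 12 h difference of Atp5md itself was -0.22 (adjusted p = 0.899 from limma). A test of whether the EB minus oil difference changed between the 5 times called 3 of the 78 genes (0.951% of all probe sets). These were Cox5b (adjusted p = 0.0194 from limma), Ndufb9 (0.0422) and Uqcrb (0.0448), and 23 had an unadjusted p under 0.05 (16% of all). With quantile normalization or no scaling none of these 3 passed, and with array weights 9 genes did (3.99% of all). Without oil 24 h replicate 1, 0 were called.

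Most other probe sets of the same genes did not pass. Of the 8 genes, 7 had further probe sets past the filter, 12 in all, of which 2 passed in the same direction, and the median difference of the 12 was 0.02. Both belong to Cox5b, which had 5 probe sets at -0.36, -0.38, -0.31, -0.05 and 0.38, and the 3 lower ones are of a class, marked x in the array's design, whose probes can also match other transcripts. The second probe set of Cox6a1 stood at 0.11, that of Uqcrb at 0.00, that of Ndufb9 at -0.03 and that of Ndufa5 at 0.03. Ndufc2 had 0.06 and 0.17 on its further probe sets, and Atp5a1 -0.06 and, on a dim one, 0.66. Atp5md has a single probe set. Uqcrh, a hinge protein of complex III, stood at -0.05 on its brightest probe set and at -0.42 on the other (adjusted p = 0.0404 from limma). When each gene was read by the mean of its probe sets, 1 of the 78 passed at 24 h, Atp5md, and Atp5a1 turned to 0.12. At 3 h the probe sets of Atp5a1 also ran opposite ways, from -0.15 to 0.46. What the probe sets of a gene differ in was not tested.

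**Figure D3:**
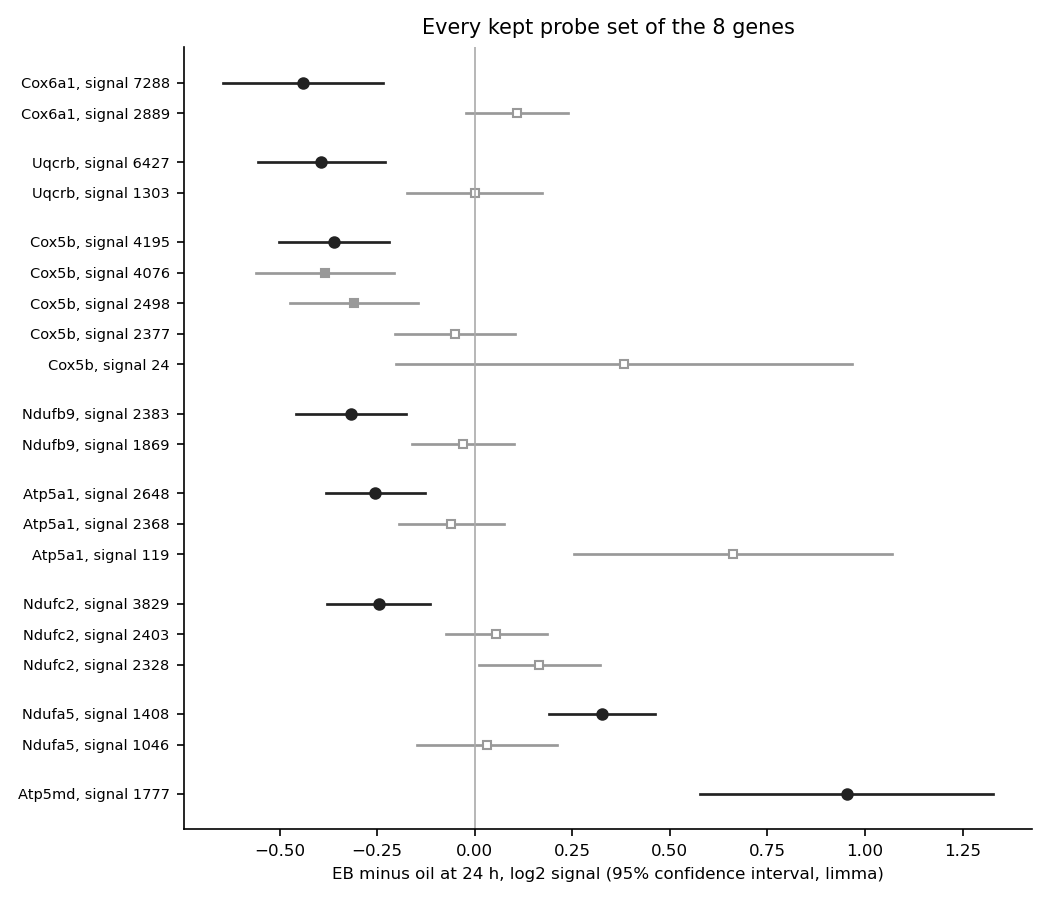
EB minus oil difference in log2 signal at 24 h (x axis) for each kept probe set of the 8 genes (y axis, with its mean scaled signal), with 95% confidence intervals from limma. Circles are the brightest probe set of a gene and squares the others, filled where the adjusted p was under 0.05; of the 12 squares, the 2 filled ones are of Cox5b.

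After median scaling the median 24 h difference was below 0 in each complex, whereas over the 78 genes it was 0.12 with no scaling (0.22 over all probe sets) and -0.019 with quantile normalization. The median was -0.17 in complex IV, where 13 of 15 genes were below 0 on the scaled signals, and -0.13 in complex II, where all 4 were. In complex V it was -0.11 (15 of 17 below 0), in complex I -0.09 (24 of 33) and in complex III -0.05 (8 of 9). Over the 78 genes, 31 had all 3 EB arrays below all 3 oil arrays (14.3% of all probe sets) and 6 had them above (9.84% of all). Complex IV ran from Cox6b2 at -0.50, which did not pass (adjusted p = 0.243 from limma) and whose groups overlapped, to Cox7a2l at 0.06. In complex III, Uqcrc1, a core protein, had 1182, 1248 and 1370 with EB and 1571, 1532 and 1621 with oil, -0.32 with an adjusted p of 0.0607 from limma.

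Where a subunit has more than 1 gene, none of the forms that follow passed at 24 h. Within subunit 4 of complex IV, Cox4i1 stood at -0.17. Cox6a2, the heart and muscle counterpart of Cox6a1, stood at -0.25, while Cox6b1 stood at -0.06 and its testis form Cox6b2 at -0.50. Cox7a2 had -0.19 and Cox7a2l, which takes part in supercomplexes, 0.06. Cox8a had -0.03 and Cox8c, a testis form, -0.09, and Ndufa4 had -0.19 against -0.34 for its paralog Ndufa4l2. The genes of the proton-carrying c subunit of complex V, which give the same mature protein, stood at 0.11 for Atp5g1, -0.11 for Atp5g2 and -0.24 for Atp5g3. The brightest and dimmest genes of complexes I and II and the dimmest of III did not pass either: Ndufa1 at -0.10, Ndufb1 at 0.17, Sdhb and Sdhd at -0.09 and Uqcr10 at -0.20.

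As a mean over all 78 genes, each centred on its own mean, the EB 24 h arrays read -0.12, -0.06 and -0.04 and the oil 24 h arrays 0.05, -0.02 and 0.04 on the log2 scale. For complex IV alone the EB 24 h arrays read -0.17, -0.18 and -0.14 and the oil 24 h arrays 0.03, 0.05 and -0.002. The 2 treatments did not overlap at 24 h in either mean, but in the mean over 78 genes the gap between their means was smaller than the range of the 3 EB arrays at 3 h, from -0.05 to 0.18. With quantile normalization the 24 h arrays overlapped, from -0.06 to -0.02 with EB and from -0.04 to -0.02 with oil. With no scaling they overlapped too, from -0.21 to -0.08 with EB and from -0.51 to -0.09 with oil.

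**Figure D4:**
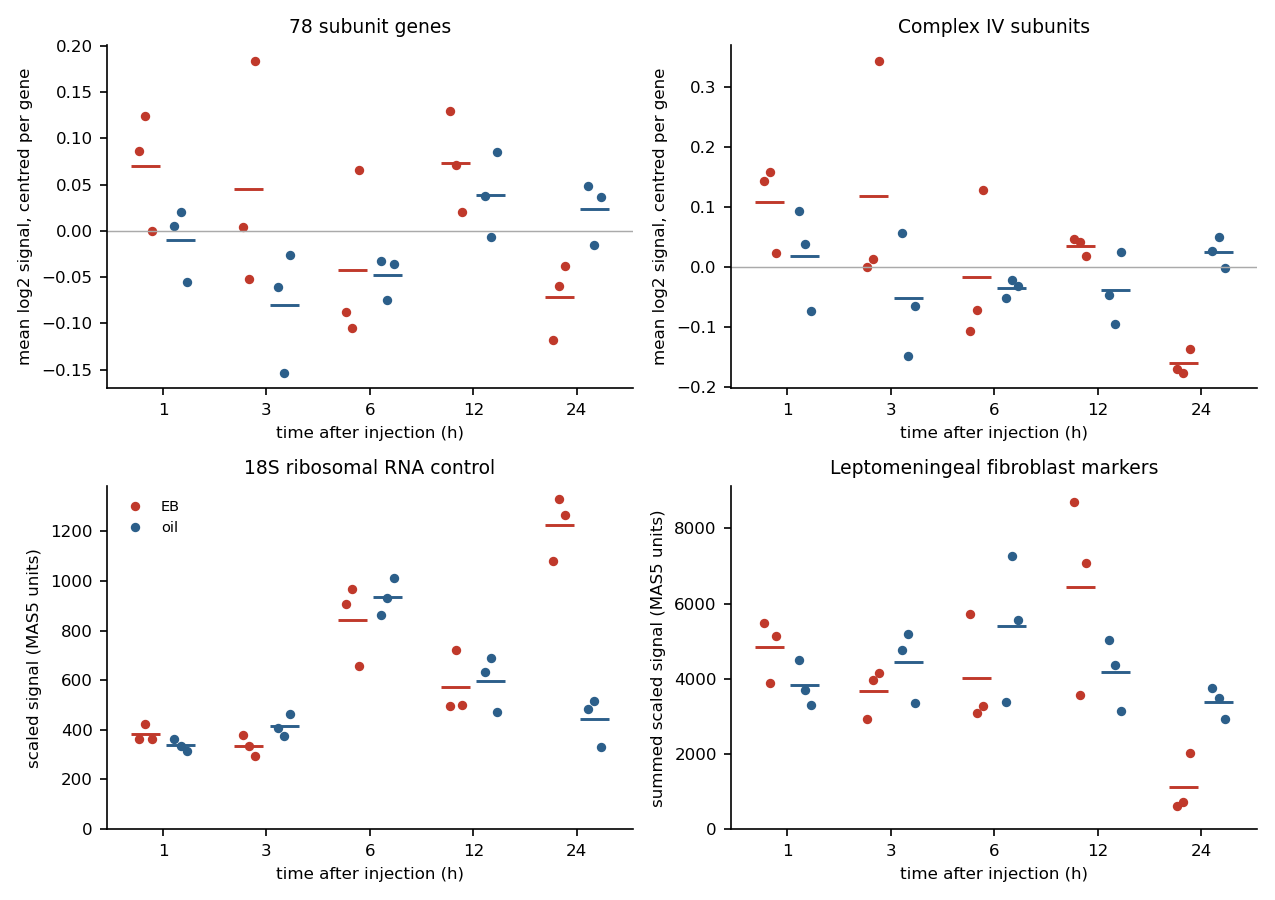
Mean centred log2 signal of the 78 genes and of complex IV (upper panels) and scaled signal of the 18S ribosomal RNA control and summed leptomeningeal markers (lower panels) on each array, by time after injection (x axis), EB in red left of oil in blue, lines at means of 3. At 24 h the EB arrays lie below the oil arrays in both upper panels and in the marker sum and above them in the 18S control, and with no scaling or with quantile normalization the 24 h groups of the first panel overlap.

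The second question was how the genes changed during the first day after birth. In EB-treated mice 28 of the 78 genes changed over the 5 times (limma, adjusted p under 0.05, where 22.8% of all probe sets did), and in oil-treated mice 25 changed (34.1% of all). Both lists held 15 genes, which is 53.6% of the EB list and 60% of the oil list, and 40 genes were in neither. All 8 genes that passed at 24 h were in both. With no scaling 78 genes passed with EB and 77 with oil (89.8% and 94.8% of all probe sets), and with array weights 43 with EB (31.1% of all). The sources used here give no date of hybridization or scanning, so time and any handling shared by the arrays of a time cannot be told apart.

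Against 1 h, no gene passed at 3 h and more passed at 12 h than at 6 h. At 3 h, 0 genes passed with EB and 0 with oil (limma, 0.137% and 0% of all probe sets), with 7 and 5 at an unadjusted p under 0.05 (11.3% and 10.6% of all). At 6 h, 8 passed with EB (6.31% of all probe sets), all lower (3.99%), and 8 with oil (15.4%), 5 lower and 3 higher (8.31% and 7.11%). At 12 h, 16 passed with EB (16.2% of all), 9 lower and 7 higher (7.49% and 8.69% of all), and 17 with oil (30.6% of all), 6 lower and 11 higher (12% and 18.7% of all).

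Sdhc, an anchor of complex II, stood out at 12 h in both treatments. It had 1375, 1286 and 1169 with EB and 1270, 1273 and 1390 with oil at 12 h, while every array of 1 h lay between 884.8 and 948.0. The 12 h against 1 h difference was 0.46 with EB (adjusted p = 0.00208 from limma) and 0.54 with oil (adjusted p = 0.000144). Atp5md rose by 0.66 with EB and 0.86 with oil. Cox6a1 fell by 0.47 with EB and by 0.44 with oil, reaching 5871, 6132 and 6247 with EB and 6068, 5184 and 5443 with oil at 12 h.

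From 1 h to 24 h the 2 treatments gave different counts. With EB, 20 genes passed (10.2% of all probe sets), 17 lower (5.51% of all probe sets) and 3 higher (4.71% of all), with a median difference of -0.16 against 0.02 over all probe sets. With oil, 4 passed (6.77% of all), all higher (4.97% of all), 0 passed as lower (1.8% of all), and the median was 0.03 against 0.05. Whether the change differed between treatments was tested only over the 5 times together, with the 3 genes named above. With quantile normalization the EB median was -0.038 and 11 genes passed (9.75% of all probe sets), and without EB 24 h replicate 1, 6 passed. Without oil 1 h replicate 2, 0 passed with oil.

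The steepest falls with EB were in 2 dim genes. Cox6b2 had 48.2, 36.3 and 58.2 at 24 h with EB, against 120.9, 120.4 and 110.2 at 1 h with EB, a difference of -1.33 (standard error 0.22, adjusted p = 0.000246 from limma). Ndufa4l2, induced by low oxygen in many cells, had 23.4, 26.3 and 19.0 at 24 h and 54.6, 70.4 and 57.8 at 1 h with EB, -1.41 with an adjusted p of 0.0223. With oil the same contrast was -0.28 for Cox6b2 and -0.79 for Ndufa4l2, with adjusted p values of 0.477 and 0.248 from limma.

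Other falls with EB were of brighter genes and smaller. Ndufs5, a complex I subunit of the intermembrane side, had 1250, 1317 and 1170 at 24 h and 1571, 1654 and 1580 at 1 h, -0.36 with an adjusted p of 0.00878 from limma. The array annotation also names a near-identical copy, Ndufs5-ps, and the probe set that names both stood at -0.15 (adjusted p = 0.257 from limma). Cox6a1 and Uqcrb fell by 0.36, Ndufa3 by 0.33, Cox5b by 0.31 and Atp5e, the epsilon subunit of ATP synthase, by 0.30. The 3 that rose with EB were Ndufa5 by 0.23, Ndufa2 by 0.36 and Atp5md by 0.69. Of the 20 genes that passed with EB, 12 had further probe sets, 19 in all. Of these 19, 5 passed, 4 of them in the same direction as the gene's brightest probe set, and the median of the 19 was -0.10. Read by the mean of its probe sets, 7 of the 20 no longer passed and 1 turned direction. With oil, Ndufa2 rose by 0.44, Ndufa13 by 0.31, Cox5a, another structural subunit of complex IV, by 0.25 and Ndufb9 by 0.24, of which Cox5a and Ndufb9 stood at -0.054 and -0.058 with no scaling.

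**Figure D5:**
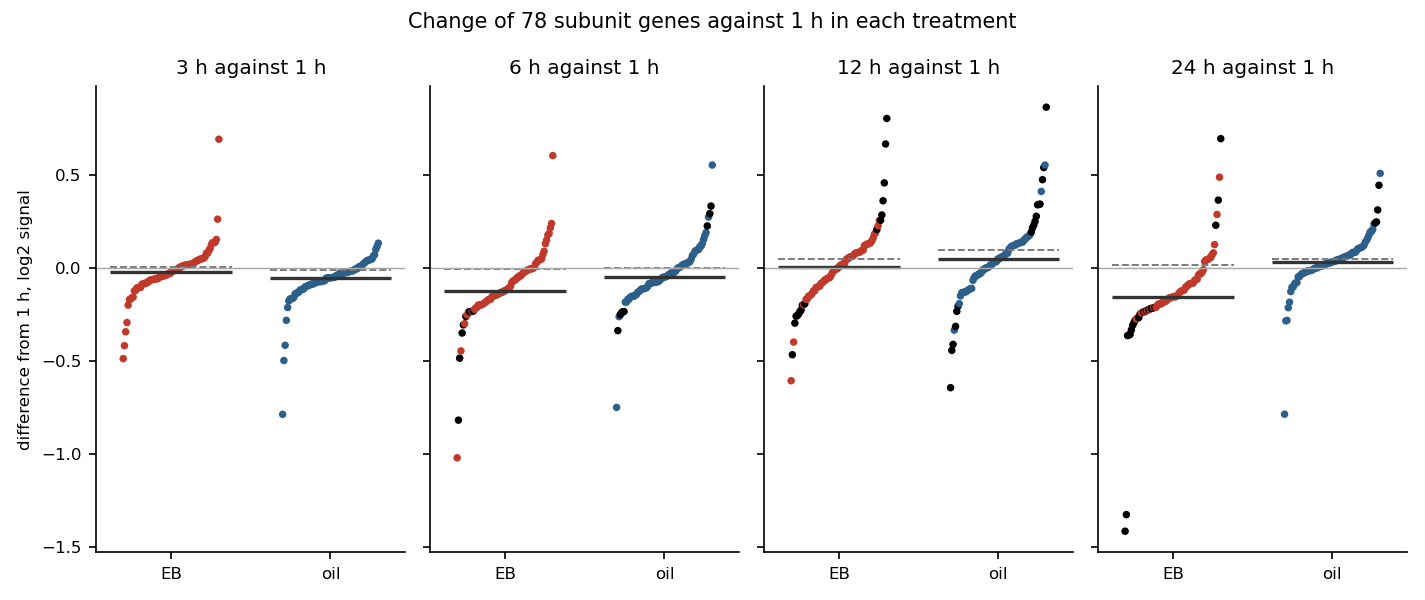
Difference in log2 scaled signal from 1 h (y axis) for the 78 genes at 3, 6, 12 and 24 h (panels), EB left of oil, with black points where limma's adjusted p was under 0.05. Thick lines are medians of the 78 genes and dashed lines those of all 27022 probe sets; at 24 h the thick line stands at -0.16 with EB and 0.03 with oil, and with quantile normalization the EB value is -0.038.

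The factors themselves were measured as well. In the EB against oil comparison at 24 h, none of Ppargc1a and Ppargc1b, coactivators of mitochondrial biogenesis, Nrf1, Gabpa, Yy1, Tfam, which maintains mitochondrial DNA, and Esrra passed in limma, and of the 15 such regulators measured 4 had an unadjusted p under 0.05 (15.7% of all probe sets). Gabpa differed by 0.35 (adjusted p = 0.0865 from limma) and Nrf1 by 0.31 (adjusted p = 0.18), and Ppargc1a by 0.07. Against 1 h, Yy1 was higher at 24 h by 0.38 with EB and by 0.39 with oil (adjusted p = 0.00971 and 0.0135 from limma).

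In related gene groups the EB against oil counts at 24 h stand beside 2.77% of all probe sets called, 2.19% lower and 0.581% higher, and 15.7% at an unadjusted p under 0.05. Of 42 assembly factors of the respiratory chain past the filter, 0 passed in limma (4 had an unadjusted p under 0.05), with a median EB minus oil difference of 0.04. Of 18 enzymes of the tricarboxylic acid cycle and its entry 0 passed (2 unadjusted, median -0.07), of 16 glycolytic genes 0 passed (2 unadjusted, median -0.10), and of 12 carriers and energy transfer genes 0 passed (4 unadjusted, median -0.12). Of 76 mitochondrial ribosomal proteins 3 were lower, Mrpl39 at -0.42, Mrpl44 at -0.36 and Mrpl35 at -0.31, and the median was -0.02. Cytosolic ribosomal proteins moved more: 20 of 44 were lower and 1, Rpl27a, higher, with a median of -0.26. The largest falls were those of Rpl39 at -1.25, Rpl41 at -0.53 and Rpl37a at -0.47. At 3 h 1 cycle gene, Dld, the shared E3 subunit of the dehydrogenase complexes, was lower, at -0.45 (adjusted p = 0.0302 from limma), while 0.474% of all probe sets passed and 0 genes of the other groups did.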

How the data were processed

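RNA from 30 hypothalami was measured on 1-colour Affymetrix arrays. The deposited values are signal intensities that the authors' pipeline computed with MAS5 (for its version and scaling: not given in the sources used here), and the study compared groups by fold in GeneSpring GX. Every deposited column was matched to a sample (0 were not). Here 64 control probe sets were left out, each array was scaled to a median of 41.3, signals below 1 were set to 1, log2 was taken, and the lowest 40% of 45037 probe sets by mean were dropped. limma 3.58.1 in R 4.3.3 fitted the 10 groups together, and p-values were adjusted by Benjamini-Hochberg over 27022 probe sets. With 3 animals against 3, an exact permutation test cannot go below 0.1, so no single gene was tested that way. The number of arrays limits the precision: on simulated data for the 3 h comparison, 48% of 1.5-fold, 82% of 2-fold and 96% of 3-fold changes among 27022 probe sets were recovered. Each array held RNA of 1 animal per the study's methods, while the labels name biological replicates, and neither says which pups were littermates. A gene was read by its brightest single-symbol probe set. Genes named are those that passed for EB against oil, up to 3 per direction and time with the largest differences whose groups did not overlap, the brightest and dimmest of each complex, isoform families, up to 8 per direction that passed from 1 to 24 h, genes whose probe sets disagree, and the main regulators with up to 3 called genes per direction of other lists. Members and gene lists were chosen with earlier results of these data known. Alternatives included other scalings, filters, probe-set rules, array weights and the two-way model of the study's methods. That model was fitted to the deposited signals with no scaling and no log2, with the same adjustment of p-values. Gene positions and promoters are from RefSeq (GRCm38.p6). In all, 10 probe sets that name several genes were kept apart.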

Additional observations from a re-analysis of the deposited data

Results flagged for a closer look

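After median scaling, limma's test of whether the EB minus oil difference changed between the 5 times called 3 of the 78 genes (0.951% of all probe sets). The adjusted p was 0.0194 for Cox5b, 0.0422 for Ndufb9 and 0.0448 for Uqcrb. None of the 3 passed with quantile normalization (0.165, 0.129 and 0.586), no scaling, no filter or the mean of probe sets. The 18S ribosomal RNA control, which is not among the genes tested, had a mean 2.77 times as high on the EB 24 h arrays as on the oil 24 h arrays. It also lay between 656.8 and 1013 on the 6 h arrays of both treatments, and its part in the 24 h results was not tested.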

How the results depend on the processing

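With no scaling the median of the 78 genes was -0.013 at 1 h (all probe sets -0.07), -0.13 at 3 h (-0.20), -0.11 at 12 h (-0.15), 0.12 at 24 h (0.22) and -0.27 in oil-treated mice from 1 to 24 h (-0.25). It left 1 gene called at 24 h (1 higher, 0 lower, 0.718% of all probe sets) and 1 in the interaction test (0.311% of all). Over the times 77 passed with oil and 78 with EB (94.8% and 89.8% of all). From 1 to 24 h 0 passed with oil and 2 with EB (6.12% and 2.02% of all). With quantile normalization the median was 0.046 at 3 h, -0.019 at 24 h and -0.038 from 1 to 24 h with EB. It gave 5 called higher and 1 lower at 24 h (2.3% of all) and 11 from 1 to 24 h with EB (9.75% of all). Scaling to the trimmed mean gave 6 in the interaction test (1.55% of all). With array weights 19 were called at 24 h (16 lower, 6.72% of all) and 9 in the interaction test (3.99% of all). With EB they gave 43 over the times (31.1% of all) and 32 from 1 to 24 h (16.3% of all). Of the 149 probe sets of these genes past the filter, 51 changed over the times with oil and 46 with EB (34.1% and 22.8% of all). From 1 to 24 h with EB, 34 of the 149 did (10.2% of all). With the mean of a gene's probe sets 1 was called at 24 h (1 higher, 0 lower) and 0 in the interaction test. Without a filter 0 were called in the interaction test (0.113% of all), and from 1 to 24 h 1 with oil and 13 with EB (3.06% and 5.04% of all). The methods' two-way model called 0 at 24 h (0 higher, 0 lower, 0.0037% of all) and 0 in the interaction test (0.0074% of all). Single genes turned direction with the mean of probe sets (Atp5a1 at 0.13 at 3 h, 0.12 at 24 h and 0.20 from 1 to 24 h with EB, Ndufs8 at 0.0077 at 6 h and 0.040 at 12 h), with no scaling (Ndufv3 at -0.0093 and Uqcr11 at -0.037 at 3 h, Cox5a at -0.054 and Ndufb9 at -0.058 from 1 to 24 h with oil) and with quantile normalization (Cox6b1 at 0.025 and Ndufa1 at 0.024 from 1 to 24 h with EB). The cause was not tested.

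Leaving out 1 array at a time gave 0 to 2 calls at 3 h, 3 to 8 at 24 h (2 to 2 higher, 1 to 6 lower), 0 to 5 in the interaction test, 19 to 30 over the times with oil, 20 to 38 with EB, and from 1 to 24 h 0 to 3 with oil and 6 to 20 with EB. At 1 h, 6 h, 12 h and averaged over the times the count stayed at 0. The EB minus oil medians lay between 0.05 and 0.11 (1 h), 0.06 and 0.16 (3 h), -0.04 and 0.04 (6 h), 0.00 and 0.06 (12 h), -0.14 and -0.07 (24 h) and 0.01 and 0.03 (averaged), and from 1 to 24 h from 0.01 to 0.05 with oil and -0.18 to -0.12 with EB. In deviations from the group means, EB and oil arrays with the same replicate number had correlations from -0.13 to 0.09. The best match in the other treatment bore the same number for 6 of the 6 arrays at 1 h and 5 at 3 h. At 6, 12 and 24 h it did for 1, 2 and 1. Whether the numbers pair the arrays was not tested. With the replicate number as a block, 8 were called at 24 h (2 higher, 6 lower, 2.85% of all probe sets) and 4 in the interaction test (1.15% of all). Dim probe sets, such as those of Cox6b2 and Ndufa4l2, had the widest errors.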

Other observations

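Of the 10 probe sets that name more than 1 gene, 8 passed the filter, among them those of Ndufs6, Ndufa11 and the Ndufb4 family. They gave 0 calls for EB against oil at 3 h or 24 h in limma, with 4 and 1 of the 8 at an unadjusted p under 0.05 (12.8% and 15.7% of all probe sets). From 1 h to 24 h in EB-treated mice, the Ndufs6 probe set stood at -0.28 (adjusted p = 0.0375 from limma).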
